A study of Mus musculus with 9 samples.

Results

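MyoD1 binding was examined at the loci of 9 genes for repressors that bind E-boxes or act on E-box factors: Twist1, Twist2, Snai1, Snai2, Zeb1, Zeb2, Msc, Bhlhe40 and Bhlhe41. A locus was the gene body with 10 kb on each side (mm10, GENCODE M21), and every peak that overlapped it was taken. The 9 loci are among 21741 protein-coding loci and held 80 of 116126 peaks. Merging the peaks of the 6 lists gave 29 regions at these loci among 58309 in all. No other protein-coding gene lies in any of the 9 windows.

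The cells were C2C12, a mouse skeletal myoblast line, from 1 clone whose endogenous MyoD1 carries a 3xFlag-Halo tag on its alleles. They also held a doxycycline-inducible 3xFlag-Halo-MyoD1 under the TRE3GS promoter, inserted with piggyBac, so both groups shared the tag and the transgene. CUT and RUN, in which an antibody brings a nuclease to a bound protein and the DNA released is sequenced, was performed with anti-Flag M2. All cultures were moved to differentiation medium, 3 without doxycycline (no dox) and 3 with it (+dox), and collected after 6 h. The 3 wild-type libraries of the series were not analysed here, so no background from untagged cells stands beside the values. Peak lists hold no RNA levels, and the cell type could not be checked against its markers. The occupancy of the repressors themselves was not measured, and no value here bears on competition between them and MyoD1.

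E-boxes are short DNA elements of the form CANNTG that basic helix-loop-helix (bHLH) proteins bind as dimers. MyoD1 binds them with an E protein and activates muscle genes, and CAGCTG is a form it prefers. The repressors act on the same system in different ways: Snail and Zeb zinc fingers occupy CACCTG elements, Twist and Msc are bHLH proteins that take up E proteins or bind E-boxes themselves, and Bhlhe40 and Bhlhe41 are bHLH-Orange proteins that prefer CACGTG. Members of each family are known to restrain muscle differentiation in myoblasts.

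The libraries differed in depth and list length. The lists held 9389 to 13877 peaks, apart from +dox replicate 3 with 53661, and depths were 2868000 to 8030000 alignments, the highest again in +dox replicate 3. Peak height is given as the authors' maximum signal in CPM, alignments scaled to library size, and as its percentile in the library's own list, where 100 is the highest peak. The median height in replicates 1, 2 and 3 was 5.12, 4.52 and 3 CPM without dox and 8.37, 7.23 and 1.49 CPM with dox. A peak of middle rank in +dox replicate 3 was thus lower in CPM than in any other library. Of the maxima, 94.8% to 99.2% per list were even numbers of alignments, so a maximum of 6 alignments may stand for fewer fragments. A list gives no signal where no peak was called, and CPM has no spike-in scale.

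The sequences under the best supported peak of 4 loci are shown because these are the repressor genes with a region called in all 6 libraries. Each is 200 bp of GRCm38 around the median position of the maximum, with every CANNTG in capitals.
Snai1, chr2:167537976-167538175, plus strand: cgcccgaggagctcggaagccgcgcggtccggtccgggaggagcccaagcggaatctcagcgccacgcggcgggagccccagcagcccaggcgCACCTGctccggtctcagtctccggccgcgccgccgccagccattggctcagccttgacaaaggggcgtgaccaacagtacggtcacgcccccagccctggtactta
Snai2, chr16:14705426-14705625, plus strand: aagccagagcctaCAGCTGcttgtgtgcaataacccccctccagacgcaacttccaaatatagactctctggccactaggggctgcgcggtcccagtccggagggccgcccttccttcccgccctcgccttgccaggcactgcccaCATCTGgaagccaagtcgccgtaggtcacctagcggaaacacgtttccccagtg
Bhlhe40, chr6:108659951-108660150, plus strand: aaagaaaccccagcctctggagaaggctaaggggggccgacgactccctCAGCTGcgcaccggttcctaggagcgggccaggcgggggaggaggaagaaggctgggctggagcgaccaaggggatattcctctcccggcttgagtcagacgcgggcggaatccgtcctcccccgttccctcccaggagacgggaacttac
Bhlhe41, chr6:145872063-145872262, plus strand: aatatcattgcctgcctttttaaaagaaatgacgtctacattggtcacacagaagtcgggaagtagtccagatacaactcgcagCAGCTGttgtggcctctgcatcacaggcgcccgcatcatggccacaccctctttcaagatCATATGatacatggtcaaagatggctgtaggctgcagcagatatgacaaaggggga
The Snai1 window holds 1 E-box, CACCTG, centred 4 bp from the maximum. The Snai2 window holds CAGCTG 84 bp from the maximum and, nearer and on the other side, CATCTG 49 bp from it. The Bhlhe40 window holds 1 E-box, CAGCTG, 48 bp from the maximum. The Bhlhe41 window holds CAGCTG 13 bp from the maximum and CATATG 47 bp from it on the other side. No CAGCTG lies in the Snai1 window, although 8 lie in the whole Snai1 region extended by 100 bp on each side. These matches are a description of the letters and not of bound sites.

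MyoD1 peaks were found at 8 of the 9 repressor loci, and 4 loci, Snai1, Snai2, Bhlhe40 and Bhlhe41, had a peak in all 6 libraries. Over all protein-coding loci, 72.4% had a peak in any library and 24.9% in all 6. The repressor windows run from 22.2 kb at Twist1 to 204 kb at Zeb1, beside a median window of 37.4 kb over all loci. Without dox, replicates 1, 2 and 3 held 6, 12 and 10 peaks at these loci, and with dox they held 15, 11 and 26. The mean was 9.33 ± 3.06 peaks without dox and 17.3 ± 7.77 with dox (SD, n = 3 each), and the groups overlapped. As a share of the list the loci held 0.075% ± 0.0113 and 0.0838% ± 0.0358 of peaks (SD, n = 3 each), and +dox replicate 3 had the lowest share of all, 0.0485%. With each list shortened to its 9389 highest peaks, the difference in peaks was 0.667.

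**Figure D1:**
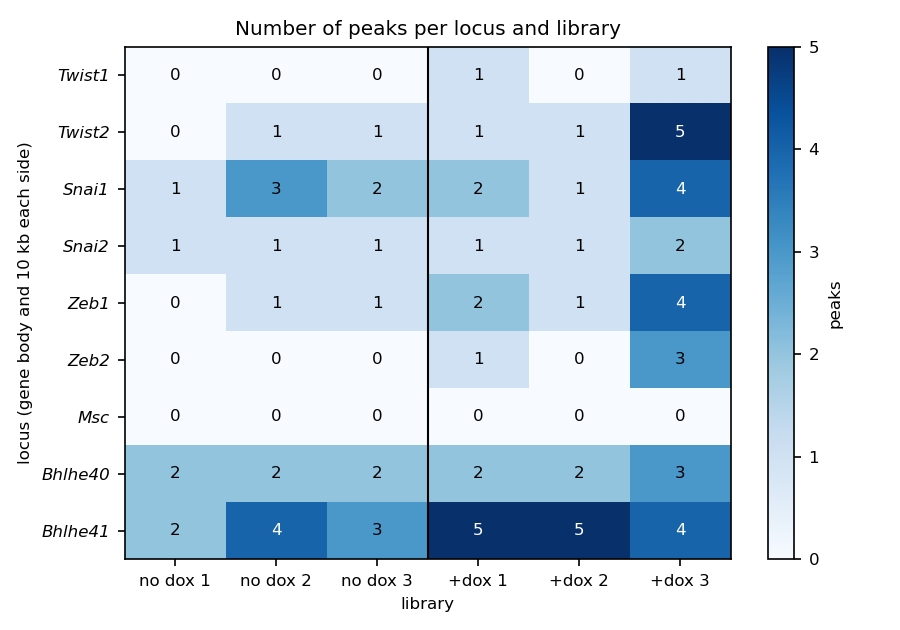
Number of peaks at each repressor locus (rows) in each library (columns, no dox left of the line and +dox right of it), where darker blue means more peaks. Snai1, Snai2, Bhlhe40 and Bhlhe41 have a peak in every library, Msc has 0 throughout, and the counts of 5 at Twist2 and 4 at Zeb1 are in +dox replicate 3.

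No locus had more peaks in every +dox library than in every no dox library, a pattern seen at 4.29% of all loci with a peak. Per locus, the exact two-sided permutation test over the 20 assignments of libraries gave p between 0.2 and 1 and an adjusted p of 1 at all 8 loci with a peak. The smallest p this design allows is 0.1, so no locus could pass a threshold of 0.05 by this test.

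Of the 29 regions, 7 were called in all 6 libraries, 5 in 2 to 5 libraries and 17 in 1 library. The share called in all 6 was 24.1% at the repressor loci and 8.3% over all regions. No region was called in every +dox library and in no untreated one, which held for 1.09% of all regions, and none showed the reverse, which held for 0.00858%. All 17 regions found in 1 library were +dox regions, 13 of them in replicate 3 alone, 3 in replicate 1 and 1 in replicate 2. At 58.6% of the repressor regions, +dox libraries alone had a call, against 65.3% of all regions, and no repressor region was called in no dox libraries alone, against 6.95% of all regions. Calls in +dox replicate 3 alone made up 44.8% of repressor regions and 59.2% of all regions. Without +dox replicate 3, the regions with +dox calls alone numbered 4 of 17 (23.5%, beside 15.2% of all regions), with 2 found in no dox libraries alone. With lists of equal length they numbered 3 of 13 (23.1%, beside 19.8%), so the repressor share lay below that of all regions with the full lists and above it in both of these settings. The one-library peaks reached 6 to 50 alignments and percentiles of 0.73 to 87.4, with a median of 44.8.

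Snai1, a Snail zinc finger best known for repressing E-cadherin, had the highest MyoD1 peak of the set. The gene lies at chr2:167538195-167542814 on the plus strand. Its promoter region, chr2:167537151-167543050, was called in all 6 libraries, with the maximum 120 bp upstream of the gene start in the median library. The maxima of the 6 libraries spanned 100 bp. The region is 5900 bp wide because a broad peak of +dox replicate 3 joined the promoter to weaker peaks over the gene body.

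Height at the Snai1 promoter was 40.5, 41.1 and 6.43 CPM in no dox replicates 1, 2 and 3, and 144, 75.6 and 23.2 CPM in +dox replicates 1, 2 and 3. In alignments these maxima were 174, 182 and 30 without dox and 413, 272 and 186 with dox. Each +dox library was higher than the no dox library of its number, but +dox replicate 3 lay below no dox replicates 1 and 2, so the groups overlapped. As percentiles the values were 97.7, 97.8 and 80.3 without dox and 99.2, 98.3 and 97.8 with dox (exact permutation test, two-sided, p = 0.2, and 0.561 after adjustment over the 4838 regions called in all 6 libraries).

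A second region at the Snai1 locus, chr2:167552651-167553800, was intergenic and lay 15030 bp downstream of the Snai1 start. It straddles the end of the window, its median maximum lies outside it, and the nearest annotated start is that of Gm11476, 89 bp away. It is called the distal Snai1 region by position only. Its peaks in no dox replicate 1 and +dox replicate 2 start outside the window and are not among the 80. Percentiles there were 81.1, 88.8 and 95.7 without dox and 81.6, 82.2 and 98.6 with dox, an overlap in which both number 3 libraries were the highest (exact permutation p = 1). This distal region, not the promoter, was the highest Snai1 peak in no dox replicate 3 and in +dox replicate 3.

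Snai2 encodes Slug, a Snail family member expressed in muscle progenitors. The gene lies at chr16:14705852-14709385 on the plus strand. Its 1 region called throughout, chr16:14704451-14706550, had a maximum 327 bp upstream of the gene start, and the maxima of the 6 libraries lay within 50 bp. Percentiles were 77.5, 89.7 and 95.2 without dox and 87.6, 80.6 and 97.3 with dox. The means of 87.5 ± 9.05 and 88.5 ± 8.41 (SD, n = 3 each) differed by 1.02, less than the replicate SD (exact permutation test, two-sided, p = 0.9, and 0.975 after adjustment). The other Snai2 region, 1802 bp upstream, was called in +dox replicate 3 alone.

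**Figure D2:**
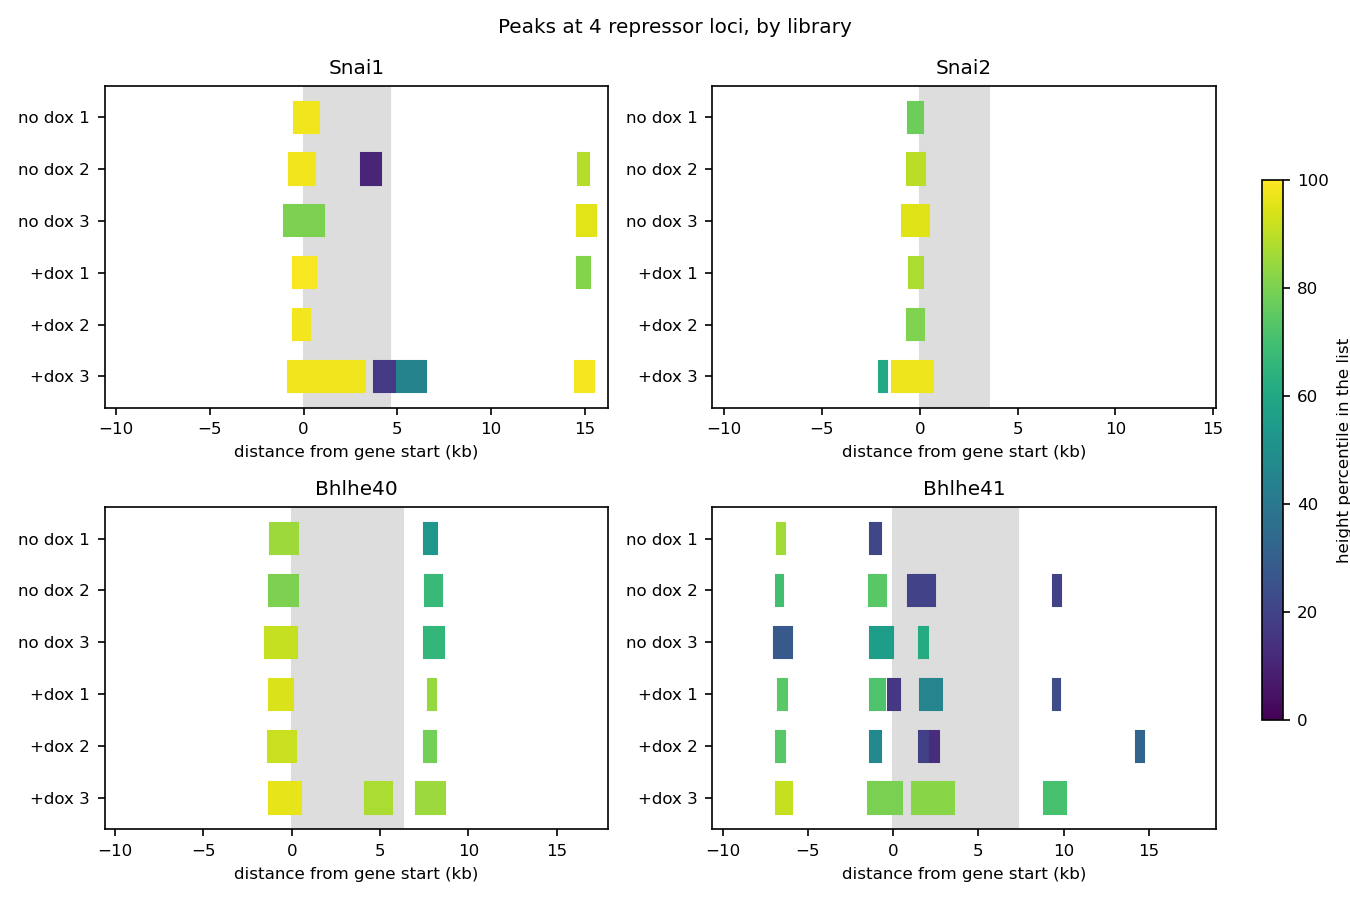
Peaks at Snai1, Snai2, Bhlhe40 and Bhlhe41 by distance from the gene start in kb, 1 row per library, with the gene body shaded in grey and colour giving the height percentile in the library's own list. All 6 libraries have a peak at the start of Snai1, Snai2 and Bhlhe40, and +dox replicate 3 has peaks past the end of Snai1, inside Bhlhe40 and upstream of Snai2 that no other library has.

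Bhlhe40 (Dec1, also called Stra13) and Bhlhe41 (Dec2, also called Sharp1) are paralogous repressors of the circadian clock, and both are known to restrain MyoD1. They held 36 of the 80 peaks between them.

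Bhlhe40 lies at chr6:108660629-108666925 on the plus strand. Its promoter region, chr6:108659101-108661150, had a maximum 579 bp upstream of the gene start, in an intron of the antisense transcript 0610040F04Rik. Height there was 13.5, 9.48 and 10.7 CPM without dox and 50.2, 29.8 and 15.9 CPM with dox, so every +dox library lay above every no dox library. The percentiles, 85.4, 80.4 and 91.2 without dox and 94.3, 91.6 and 96.1 with dox, also did not overlap.

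The second Bhlhe40 region, chr6:108667651-108669300, was intergenic and lay past the gene end, 7896 bp from its start. Percentiles were 53.3, 67.4 and 66.0 without dox and 84.3, 78.8 and 84.8 with dox, again with no overlap. Height in CPM did overlap there, since +dox replicate 3 at 5.23 CPM lay below no dox replicate 2 at 6.32 CPM. For both Bhlhe40 regions the exact two-sided permutation p on percentiles was 0.1, the smallest possible, with an adjusted p of 0.421.

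These 2 Bhlhe40 regions were the members with a higher percentile in every +dox library, 2 of the 7 regions called in all 6 libraries, beside 23.7% of all such regions, and 0 of 7 were lower in every one, beside 0.0413%. Both overlapped between groups when ranked among the 4838 shared regions alone. The promoter region then stood at percentiles 73.1, 50.6 and 78.0 without dox and 85.8, 77.9 and 65.4 with dox, so +dox replicate 3 fell between the no dox values.

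Bhlhe41 lies at chr6:145858243-145865558 on the minus strand and had the most peaks of the set, 2, 4 and 3 without dox and 5, 5 and 4 with dox. The groups met at 4 peaks, in no dox replicate 2 and +dox replicate 3. Its highest region, chr6:145871501-145872550, lay 6604 bp upstream of the gene start in intergenic sequence, with percentiles of 86.1, 69.9 and 27.5 without dox and 74.6, 74.1 and 91.4 with dox. Nearer the gene, chr6:145865051-145867050 had its maximum 1142 bp upstream of the start, with percentiles of 21.4, 74.2 and 55.3 without dox and 72.0, 46.9 and 79.9 with dox. Both regions overlapped between groups (exact permutation p = 0.4 and p = 0.6, adjusted p = 0.774 and 0.893).

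The remaining 3 Bhlhe41 regions were called in 5, 3 and 1 libraries. The one with 5 calls, over a coding exon 1820 bp into the gene, was named here after its values were seen, because its maxima in 5 libraries lay within 75 bp. Its percentiles were 19.7 and 61.2 in no dox replicates 2 and 3 and 45.3, 19.0 and 82.2 with dox.

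Twist1 and Twist2 are bHLH repressors that bind E proteins and keep MyoD1 from activating muscle genes. Twist1, at chr12:33957671-33959829 on the plus strand, had no peak in any no dox library and 1 each in +dox replicates 1 and 3. The peak of +dox replicate 3, chr12:33955901-33956300, lay 1596 bp upstream of the gene start at 14 alignments and percentile 54.0. That of +dox replicate 1 lay 404 bp into the gene in its coding exon, at 14 alignments and percentile 23.0. The libraries thus shared no Twist1 region.

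At Twist2, chr1:91801461-91848028 on the plus strand, the counts were 0, 1 and 1 without dox and 1, 1 and 5 with dox. The highest peak, chr1:91815751-91817200 in an intron 15364 bp into the gene, was called in +dox replicate 3 alone, at 42 alignments and percentile 84.8. The region at the Twist2 start was singled out after its values were seen, since 4 libraries called it: no dox replicate 2 at percentile 51.0 and the 3 +dox libraries at 0.73, 25.7 and 31.8. It was thus called in every +dox library but ranked lower there than in the 1 no dox library that had it, and it is the region that would count as called with dox alone if no dox replicate 2 were left out.

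Msc (MyoR, or musculin), a bHLH repressor expressed in myoblasts, had 0 peaks in all 6 libraries. The gene lies at chr1:14753346-14755992 on the minus strand. The nearest peak to the gene body was 16959 bp away in +dox replicate 3 and between 442596 and 443296 bp away in the other 5 libraries. A list without a peak does not show that MyoD1 was absent, only that none was called at this depth.

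Zeb1 and Zeb2 are zinc finger and homeodomain repressors, and Zeb1 is known to hold muscle genes silent in myoblasts. Zeb1, on chromosome 18, had 0, 1 and 1 peaks without dox and 2, 1 and 4 with dox. Its highest peak, 148665 bp into the gene in an intron, was called in +dox replicate 3 alone at percentile 70.8. The promoter region with its centre 110 bp upstream of the start, singled out after its values were seen, was called in 5 libraries and was weak in each of them. Its percentiles were 29.1 and 4.47 in no dox replicates 2 and 3 and 9.05, 12.5 and 44.8 with dox, from 6 to 14 alignments, and its maxima were spread over 1350 bp.

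Zeb2, at chr2:44983632-45117395 on the minus strand, had no peak without dox, 1 in +dox replicate 1, 0 in +dox replicate 2 and 3 in +dox replicate 3. Its highest, chr2:44976451-44977800, lay past the gene end in +dox replicate 3 at 32 alignments and percentile 79.9. The 1 peak of +dox replicate 1 held 6 alignments and was at percentile 0.73, among the lowest of its list. None of the 4 Zeb2 regions was called in a second library.

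The loci covered a wide range of heights. The highest percentile at a locus, averaged over the 6 libraries with 0 where no peak was called, was 97.9 at Snai1, 89.8 at Bhlhe40, 88.0 at Snai2, 76.9 at Bhlhe41, 35.0 at Twist2, 22.1 at Zeb1, 13.4 at Zeb2 and 12.8 at Twist1. Of the 15740 protein-coding loci with a peak, 1.44% stood as high as Snai1, 7.21% as high as Bhlhe40, 8.58% as high as Snai2 and 16.1% as high as Bhlhe41. Snai1 was the highest in each of the 6 libraries, but in no dox replicate 3 only through the distal region. In that library the Snai1 promoter stood at 80.3, below Snai2 at 95.2 and Bhlhe40 at 91.2. The mean and share given for Snai1 include the distal region. The ranges of Bhlhe40, Snai2 and Bhlhe41 overlapped, as did those of Twist2, Zeb1, Zeb2 and Twist1, so the order within these groups is not fixed beyond the spread between libraries.

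**Figure D3:**
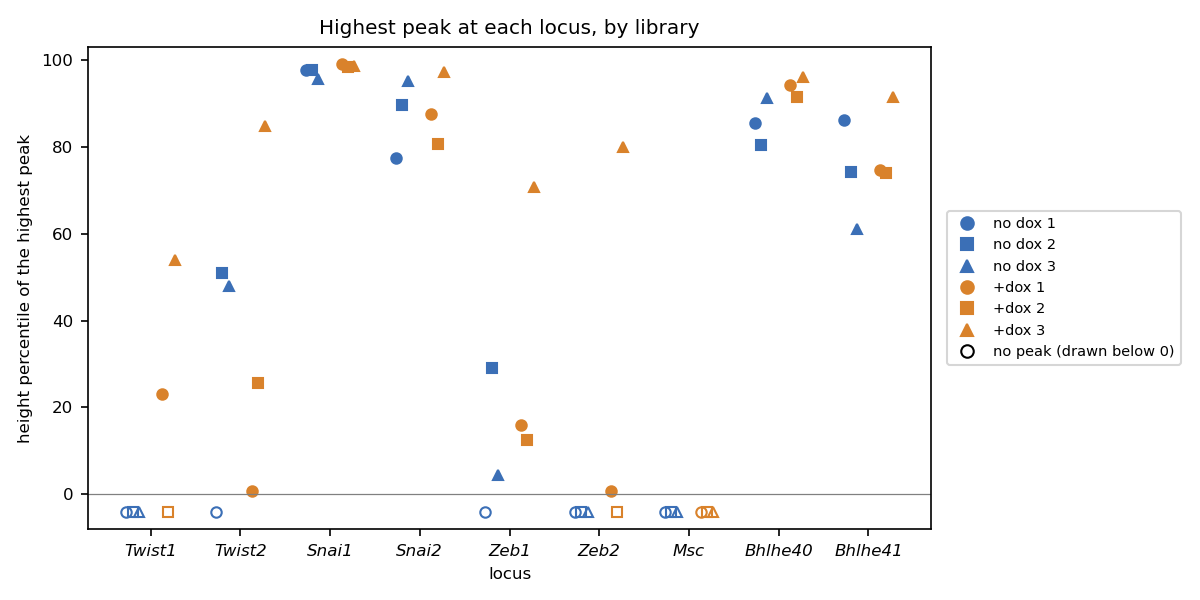
Height percentile of the highest peak at each locus in each library, with no dox in blue, +dox in orange, replicates 1, 2 and 3 as circles, squares and triangles, and open symbols below 0 where no peak was called. Every Snai1 value lies above 95, and at Snai1 and Bhlhe40 the orange symbols lie above the blue ones.

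At Snai1 the highest percentile was 97.7, 97.8 and 95.7 without dox and 99.2, 98.3 and 98.6 with dox. The group means of 97.0 ± 1.21 and 98.7 ± 0.453 (SD, n = 3 each) differed by 1.62. Bhlhe40, with 85.6 ± 5.39 and 94.0 ± 2.25 (SD, n = 3 each), was the other locus at which the groups did not overlap, so 2 of 8 loci did so beside 17.7% of all loci with a peak. At both the exact two-sided permutation p was 0.1, the smallest possible, and the adjusted p over all loci with a peak was 0.563. The values overlapped at both loci with lists of equal length, where the differences were 0.00533 at Snai1 and 4.85 at Bhlhe40. At Snai1 they also overlapped with only peaks whose maximum lay inside the window, and with the gene body only. The distal region left the locus in both settings. The Snai1 values overlapped too on the percentile of total signal, at 96.1, 97 and 90.2 without dox and 98.6, 96.7 and 98 with dox. Those of Bhlhe40 did not overlap in these settings. The median difference over the 8 loci was 7.31 percentile points, and over all loci with a peak it was 14.9.

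Height was compared over the 7 shared regions with limma on log2 CPM, fitted on all 4838 regions called in all 6 libraries. The median log2 change (+dox minus no dox) over these 4838 regions was 0.91, so the members' changes are read relative to that shift. The 7 member changes ran from 0.709 to 1.52, with a median of 1.07. None passed an adjusted p of 0.05 in limma, and neither did any other region, a background of 0%, while 1173 regions were higher and 0 lower at an unadjusted p under 0.05.

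**Figure D4:**
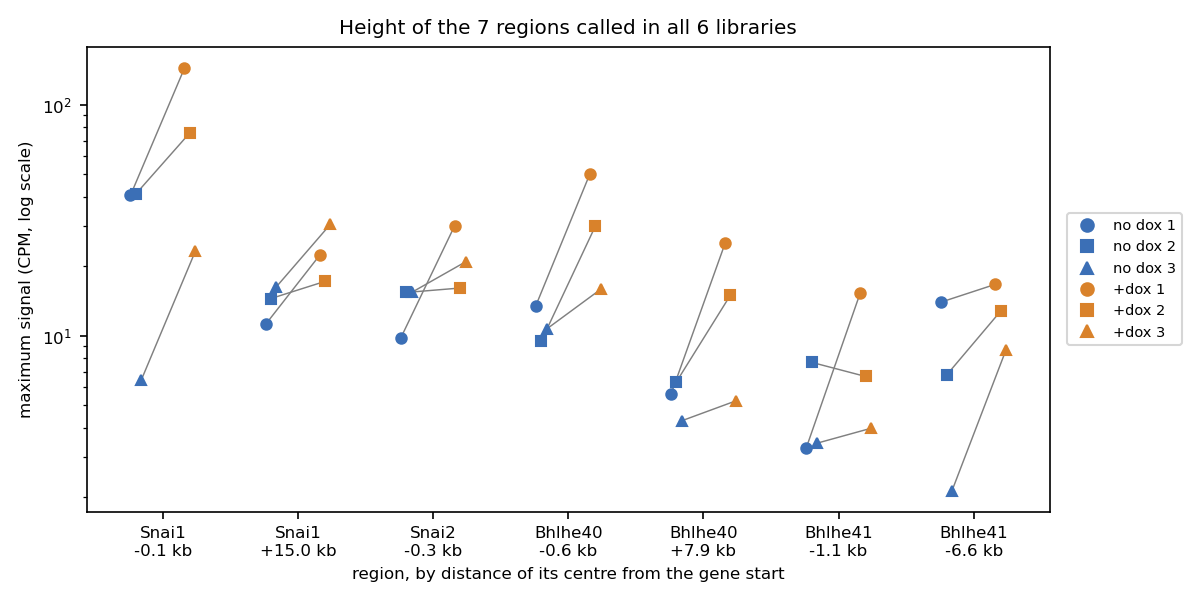
Maximum signal in CPM (log axis) at the 7 regions called in all 6 libraries, no dox in blue and +dox in orange, with libraries of the same replicate number joined by a line. The line rises at 7 of 7 regions for replicates 1 and 3, and for replicate 2 it falls at the Bhlhe41 region 1142 bp upstream.

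With all 6 libraries the Snai1 promoter changed by 1.52 ± 0.72 (SE), with an adjusted limma p of 0.206. It exceeded 91.2% of all shared regions, the Bhlhe40 promoter at 1.37 ± 0.57 (adjusted p = 0.203 in limma) stood at 85.1%, and the region past the end of Bhlhe40 at 1.24 ± 0.60 (adjusted p = 0.207 in limma) at 75.8%. The upstream Bhlhe41 region changed by 1.07 ± 0.64 (adjusted p = 0.242 in limma). The nearer Bhlhe41 region, the distal Snai1 region and the Snai2 promoter changed by 0.75, 0.72 and 0.71.

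The order of these changes turned with 1 library left out. Without no dox replicate 3 the Snai1 promoter changed by 0.63, below the median of 0.66 over all regions of that fit, while the Bhlhe40 promoter changed by 1.35, the distal Snai1 region by 0.84 and the Snai2 promoter by 0.82. Without +dox replicate 1 the Snai1 promoter changed by 0.93 and the Bhlhe40 promoter by 0.97. On total signal, with all 6 libraries kept, the Snai1 promoter changed by 0.96 and the Bhlhe40 promoter by 1.28. The upstream Bhlhe41 region ran from 0.34 without no dox replicate 3 to 1.69 without no dox replicate 1. The nearer Bhlhe41 region ran from 0.23 without +dox replicate 1 to 1.20 without +dox replicate 3, and without no dox replicate 2 it was 1.15, above the median of 1.05 in that fit. The order of the 7 regions was not the same in every such fit, nor was the side of the median at which the Snai1, Snai2 and Bhlhe41 regions lay. The region past the end of Bhlhe40 also fell just below the median without +dox replicate 1, at 0.734 beside 0.735.

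Libraries of the same number deviated together, most clearly those of number 3. With the replicate number as a block in limma, 4 of the 7 regions passed. Their limma p values after adjustment were 0.00134 at the Snai1 promoter, 0.00337 at the Bhlhe40 promoter, 0.00722 past the end of Bhlhe40 and 0.0182 at the upstream Bhlhe41 region. The background under the same block was 53.5% of all 4838 regions, so the members' share is near it. After each library was centred on its median over the shared regions, the Snai1 promoter stood at 0.59 ± 0.66, the Bhlhe40 promoter at 0.45 ± 0.43 and the Snai2 promoter at -0.22 ± 0.44 (log2, SE), and 0 of 4838 regions passed in limma with or without the block.

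Without +dox replicate 3, limma called 3 of the 7 regions, the Snai1 promoter at 2.24 (adjusted p = 0.00346), the Bhlhe40 promoter at 1.80 (adjusted p = 0.0119) and the region past Bhlhe40 at 1.86 (adjusted p = 0.0097), beside 40.1% of all regions. None of these was called once the libraries were centred as well, with an adjusted limma p of 0.34, 0.434 and 0.36. Every +dox library was above every no dox library in CPM at 3 of the 7 regions, the Bhlhe40 promoter, the distal Snai1 region and the Snai2 promoter, beside 27.5% of all shared regions.

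**Figure D5:**
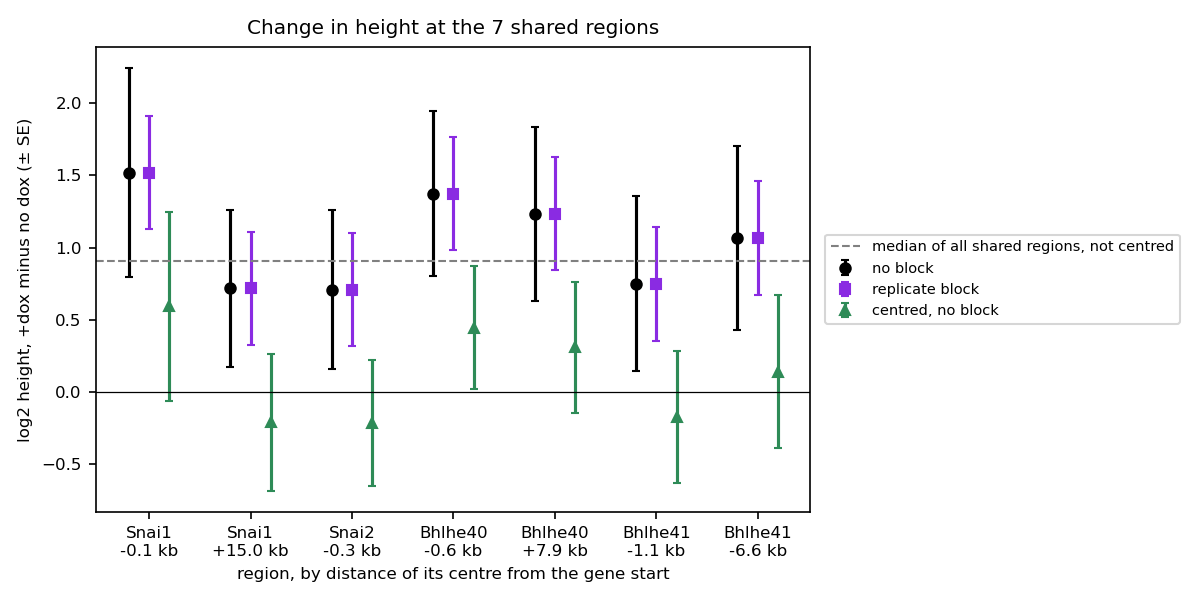
Change in log2 height, +dox minus no dox, with its standard error, at the 7 shared regions from limma without a block (black), with the replicate block (purple) and after centring (green), beside the median of all shared regions (dashed, 0.91). Without centring 4 members lie above the dashed line and 3 below it, and after centring 3 lie below 0.

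The repressor regions were searched on both strands for 5 E-box words. In the region extended by 100 bp on each side, CAGCTG was present in 20 of 29 (69.0%; 64.1% of all 58309 regions), CACCTG in 19 (65.5%; 66.0%), CAGATG in 17 (58.6%; 63.1%), CATATG in 4 (13.8%; 17.5%) and CACGTG in 11 (37.9%; 19.7%). Within 100 bp of the maximum the shares were 27.6% for CAGCTG beside 29.5% of all regions, 24.1% for CACCTG beside 21.2%, 17.2% for CAGATG beside 18.5%, 3.45% for CATATG beside 2.62% and 17.2% for CACGTG beside 4.57%. CACGTG, the word that Bhlhe40 and Bhlhe41 prefer, was thus the word whose share differed most from that of all regions. Of the 11 regions with it, 5 were among the 7 called in all 6 libraries, where 34.6% of all such regions hold it. Among regions called in 1 library, 17.6% of the members held it beside 16% of all. The 29 member regions were wider than all regions, with a median of 1200 bp beside 900 bp. Their median GC within 100 bp of the maximum was 59.2% beside 54.2%. For the regions called in all 6 libraries, the median width was 2000 bp among the members and 1800 bp over all, and GC 65.2% and 61.2%. The word counts are small, and neither they nor their relation to width and GC were tested.

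CACGTG was present in both Bhlhe40 regions called throughout and in 4 of the 5 Bhlhe41 regions, with 4 copies in the Bhlhe41 region 9633 bp downstream of the gene start. Within 100 bp of the maximum it lay in that region and in the Bhlhe41 regions 1820 bp downstream and 1142 bp upstream of the start. Elsewhere it lay that near only in the Twist1 region 1596 bp upstream and in a Zeb1 region 18515 bp into the gene. In the RefSeq promoter table (GRCm38.p6, a short window around each start), the Bhlhe41 promoter held CACGTG, as did 7.15% of all 32851 promoters, and the Bhlhe41 and Snai1 promoters held CACCTG, as did 20.2%. The table matched 5 of the 9 members, and the windows of the other 3, Twist1, Twist2 and Zeb2 (4 starts), held no CANNTG, which 72.3% of all promoters did.

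Of the 29 repressor regions, 12 had their maximum in intergenic sequence, 9 in an intron, 3 in a coding exon, 2 in a UTR and 3 in an exon of a noncoding transcript. The maximum lay within 1 kb of an annotated start of its own gene in 10 of 29.

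Genes that act with or on MyoD1 gave a reference. The 7 loci of Id proteins, which take up E proteins, and of E proteins were Id1, Id2, Id3, Id4, Tcf3, Tcf4 and Tcf12. A peak in all 6 libraries was found at 5 of 7, beside 24.9% of all protein-coding loci. Their highest percentile was above the no dox values in every +dox library at 5 of 7, beside 17.7% of all loci with a peak. That held at 2 of the 8 repressor loci with a peak and 0 of 4 myogenic factor loci (Myod1, Myf5, Myf6 and Myog). Myf5 and Myf6 had the same values in every library. At Id1 the highest percentile was 82.2, 90.9 and 78.4 without dox and 97.8, 96.4 and 98.3 with dox. At Myod1 itself it was 98.0, 100 and 98.6 without dox and 98.2, 96.8 and 96.9 with dox, the level that Snai1 reached. Myod1 is edited in these cells, and the transgene carries its coding sequence. The difference between the repressor and Id or E protein loci was not tested. Among 18 other E-box repressors and bHLH factors, 15 had a peak, 12 had one in all 6 libraries and 3 had a higher highest percentile in every +dox library, and among 10 corepressors these counts were 10, 5 and 2. Over all loci the first 2 shares were 72.4% and 24.9%, and the third was 17.7% of loci with a peak. No locus of these lists had a lower highest percentile in every +dox library. None of these loci was examined with lists of equal length.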

How the data were processed

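Per the study's methods, reads went through the nf-core pipeline cutandrun (3.2.2) on mm10, with a blacklist, CPM scaling and relaxed SEACR calling, and the submitters' processing notes also name deepTools. Peaks were called in each library on its own. The deposited lists give, per peak, total signal and maximum signal in CPM, and both signal columns are the authors' values. No peak ended past a chromosome end of GRCm38, the assembly of mm10. The maxima were whole multiples of 1 step in 100% of peaks (within 0.02 alignments), and that step gave the depth.

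Percentiles are mid-ranks in a list. Peaks that overlapped or touched were merged over the 6 lists. Values per locus or region were tested by exact permutation (two-sided, 20 assignments), and heights with limma on log2 maximum signal, with Benjamini-Hochberg adjustment over all loci or regions tested. The limma step was tested on simulated data with equal spread and a planted shift larger than any member change. That run does not show whether the fit finds changes of the members' size. Replicates are labelled as biological. The permutation tests and the limma fit had no block. A limma fit with the replicate number as a block was added as an alternative, since the libraries' deviations from the group means over shared regions correlated at 0.485, 0.267 and 0.628, above the limit of 0.1, and each library correlated best with its own number. For +dox replicate 2 that lead was slight, 0.267 with no dox replicate 2 beside 0.265 with no dox replicate 1. No dox replicate 2 and +dox replicate 1, at 0.219, also passed the limit. Replicate 3 of either group correlated with replicates 1 and 2 of the other at -0.56 to -0.321. Deviations from a group mean of 3 libraries are not independent of each other. The labels state no shared day or batch.

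All 9 genes are named. A region is named if called in all 6 libraries, in all of 1 group and none of the other, or if it has the highest mean percentile of its locus. Sequence windows were taken off chromosome 18 and outside UTRs. Windows at Twist1 and Zeb2, each from 1 library, are not shown. The members and lists were chosen with earlier results of these data known. Alternatives left out each library, used replicates 1 and 2, shortened the lists, and changed the window, rank, merging, scaling and pairing. Tools were Python 3.11.15, NumPy 2.4.6, pandas 2.3.3, pysam 0.24.0, samtools 1.23.1, matplotlib 3.10.9, R 4.3.3 and limma 3.58.1.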

Additional observations from a re-analysis of the deposited data

How the results depend on the processing

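With lists of equal length the mean difference in highest percentile over the 9 loci, 10.6 points, reversed to -1.93, and the regions with +dox calls alone, 17, numbered 3. That number was 5 of 17 with replicates 1 and 2 only (29.4%, beside 23.4% of all regions) and 11 of 19 in the gene body only (57.9%, beside 65.3%). Peak counts did not overlap at 1 locus with replicates 1 and 2 only and at 1 locus with 25 kb on each side, against 0. No share over all loci in these settings stands beside them, so they are not read as results about the members. The replicate block was run on heights in limma, where it added calls at 4 of the 7 members, as given above, and at 0 of the other 3, while replicates 1 and 2 only gave 3 member calls beside 2264 higher regions of 6314. Counts and permutation tests were not run with the block. The median percentile difference of the 7 shared regions, 8.38 beside 6.4 over all shared regions, is the same under the pairing by construction. It was 0.965 with replicates 1 and 2 only and 1.93 with lists of equal length. Leaving out 1 library gave 0 to 3 limma calls, the 3 being without +dox replicate 3, beside 40.1% of all regions. Regions with +dox calls alone ran from 4 (23.5%, beside 15.2% of all regions) to 20 (66.7%, beside 71.8%). There were 0 to 3 loci without overlap and 0 to 1 region called in every +dox and no no dox library. No share over all loci or regions in the same settings stands beside these last counts. They are therefore not read as results about the members. The difference in peaks ran from 3.67 to 11.2 more with dox. Differences in percentile were 0.153 to 16.3 points for the highest and 4.87 to 9.57 points for shared regions. Removing +dox replicate 3 gave the lowest values for peaks, regions with +dox calls alone and highest percentile. Centring on the shared median reversed the log2 change of the distal Snai1 region to -0.21, of the Snai2 promoter to -0.22 and of the Bhlhe41 region 1142 bp upstream to -0.18, with or without the block, and without +dox replicate 3 the first 2 were -0.61 and -0.38. The centred fits with block or without a library, the regions with +dox calls alone, the peak counts per locus other than at equal length, and the alternatives for single loci were chosen after seeing the data. The cause was not tested.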
